A study of Mus musculus with 2 samples.

Results

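The cells described here are insulin-producing beta cells of NOD mouse islets that carried RNA of interferon-induced genes. A barcode was taken as a beta cell when Ins1 and Ins2 together made up at least 3% of its unique molecular identifiers (UMIs, 1 for each captured RNA molecule) and Gcg, Sst and Ppy each made up less than 2%. A beta cell was taken as carrying interferon-induced RNA when its UMIs of 8 genes (Iigp1, Gbp4, Gbp6, Gm4841, F830016B08Rik, Rsad2, Igtp and Irgm1) summed to 2 or more. This held for 664 of 1950 beta cells, among 8813 barcodes that passed the cell filter (200 or more genes detected, and mitochondrial UMIs no more than 20%). Because these 8 genes chose the cells, their levels, and every difference from the remaining beta cells, are given as a description without a test.

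The study profiled isolated pancreatic islets of NOD mice, a strain that develops autoimmune diabetes spontaneously, by single-cell RNA sequencing of the 3′ ends of transcripts. Mice received a HAMS or a HAMSAB diet from the age of 5 weeks, for 5 weeks. HAMS is high-amylose maize starch, and HAMSAB is the same starch carrying acetate and butyrate groups, which gut bacteria release as short-chain fatty acids. Each diet is represented by 1 library, without a count of the mice in it, so diet and library cannot be told apart. Intervals cover counting error only, except those of median insulin shares, which rest on the spread between cells of 1 library.

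Interferons bind receptors that activate JAK kinases and STAT transcription factors, and these switch on a large set of antiviral and antigen-presentation genes. Type I interferon acts mainly through a DNA element called the ISRE, whereas interferon gamma acts mainly through an element called GAS. In autoimmune diabetes, beta cells of inflamed islets are known to respond to both kinds of interferon with raised MHC class I.

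To show the elements that this biology turns on, promoter stretches are printed for the members of the 8-gene sum that the RefSeq promoter table holds (3 of 8) and for 5 other interferon-induced genes described below, chosen because their window holds a match. Capitals mark matches to the ISRE core GAAANNGAAA or to the GAS pattern TTCNNNGAA on either strand. Each stretch is read 5′ to 3′ along the gene's strand from RefSeq, build GRCm38.p6, which is the reference strain and not NOD.
Rsad2, chr12:26456533-26456602, minus strand: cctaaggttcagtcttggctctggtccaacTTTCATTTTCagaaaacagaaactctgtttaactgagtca
Igtp, chr11:58199481-58199555, plus strand: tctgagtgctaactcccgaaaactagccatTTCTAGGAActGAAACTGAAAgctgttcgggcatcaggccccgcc
Irgm1, chr11:48871428-48871457, minus strand: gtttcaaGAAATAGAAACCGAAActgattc
Gbp2, chr3:142620597-142620620, plus strand: cttttagTTTCACTTTCactgtct
Gbp7, chr3:142530200-142530322, plus strand: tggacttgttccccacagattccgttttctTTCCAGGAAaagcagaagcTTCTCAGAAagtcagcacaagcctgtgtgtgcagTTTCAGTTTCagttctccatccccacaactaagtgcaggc
Cxcl10, chr5:92349063-92349132, minus strand: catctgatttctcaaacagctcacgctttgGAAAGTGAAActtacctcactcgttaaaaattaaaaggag
Ifit1, chr19:34640755-34640843, plus strand: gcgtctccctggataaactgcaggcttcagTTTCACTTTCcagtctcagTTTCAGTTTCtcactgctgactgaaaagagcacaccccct
B2m, chr2:122147518-122147587, plus strand: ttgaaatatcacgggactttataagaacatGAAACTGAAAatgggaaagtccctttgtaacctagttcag
Each stretch holds the ISRE core by this choice, and Igtp and Gbp7 hold GAS matches as well. Of other genes described below, Cd274 has neither pattern in its window, and Irf1 has no ISRE core in either of its windows and GAS in 1 of them. Positions below are counted back from the RefSeq start of transcription. In Igtp the GAS match, at 45 to 37 bases before the start, lies just upstream of the ISRE core at 34 to 25 bases. In Irgm1 a pair of overlapping ISRE cores spans 30 to 15 bases before the start. The Irgm1 and Gbp2 stretches are short because a longer GENCODE gene model overlaps them. Over all 32851 RefSeq promoters of 300 bases, from 250 before to 50 after the start, 3.44% hold the ISRE core and 8.3% hold GAS; counted per gene, the shares are 3.99% and 9.55% of 27025 genes. Among 37 genes of the interferon-induced GTPase and antiviral lists with a promoter in the table, 21 (56.8%) hold the ISRE core and 12 (32.4%) hold GAS. The ISRE core was matched in 5 of 20 genes of MHC class I presentation and in 0 of 17 beta cell identity genes. A match describes letters in this window and is no evidence of binding.

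The HAMS library held 3599756 UMIs over 4352 barcodes and the HAMSAB library 4254040 over 5022, with a median of 704 and 705 UMIs per kept barcode. The libraries shared 6 barcode sequences, none of them a cell with interferon-induced RNA. The selection fixes high insulin and low Gcg and Sst, so the label of beta cell was checked on genes it did not use. Mafa, a transcription factor of mature beta cells, was at 1572 and 1358 CPM (UMIs of a gene per 1000000 UMIs of the cells) in the cells with interferon-induced RNA of the HAMS and HAMSAB libraries, against 52.0 and 14.1 in alpha cells and 42.6 and 9.04 in delta cells. G6pc2, a glucose-6-phosphatase of islets, was at 1256 and 1837 CPM, against 38.1 and 28.2 in alpha cells and 39.0 and 22.6 in delta cells. Of 24 immune cell markers, 4 were at 0 in these cells of the HAMS library and 5 in the HAMSAB library. Summed without Igkc, an immunoglobulin gene, the markers reached 209 and 350 CPM, against 272 and 293 in the remaining beta cells and 5512 and 5663 in immune cells. Igkc was seen in 9 and 7 cells with interferon-induced RNA, and a single cell held 43.9% and 42.5% of its UMIs.

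In the HAMS library 423 of 1236 beta cells (34.2%, exact Clopper-Pearson 95% interval 31.6 to 36.9) carried interferon-induced RNA, and in the HAMSAB library 241 of 714 (33.8%, 30.3 to 37.4). These cells were more deeply sequenced than the remaining beta cells, with a median of 835 against 576 UMIs in HAMS and 1119 against 728 in HAMSAB, and a deeper cell reaches 2 UMIs more easily. When every cell was thinned to 500 UMIs and the 375 and 128 shallower beta cells were left out, the shares were 28.2% (25.2 to 31.4) and 23.2% (19.9 to 26.8). Over 20 random draws of that thinning they ran from 27.2% to 29.2% in HAMS and from 22.2% to 24.9% in HAMSAB. The summed level of the 8 genes over all beta cells was 2318 CPM in HAMS and 2437 in HAMSAB (log2 ratio 0.07, -0.02 to 0.16), but 2209 and 2101 with each cell weighted equally. Its direction turns with the weighting, and no order between the libraries is read from the shares.

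The sum over the 8 genes was uneven between cells. It was 0 in 50% of beta cells of the HAMS library and in 54.6% of the HAMSAB library, while 8 or more UMIs were found in 4.61% plus 1.05% (8 to 14 and at least 15) of HAMS and 7.56% plus 2.52% of HAMSAB beta cells. The highest cell of each library held 80 UMIs of the 8 genes, 2.37% of its 3372 UMIs in HAMS and 3.06% of its 2618 UMIs in HAMSAB. Those cells had 7.68% and 13.98% insulin UMIs and 0 UMIs of the immune markers. The median sum among cells with interferon-induced RNA was 3 in HAMS and 5 in HAMSAB. HAMSAB beta cells were deeper (median 841 against 667.5 UMIs), and the excess of high sums did not hold throughout at equal depth. Thinned to 1000 UMIs in 1 draw, 8 or more were found in 9.90% (6.73 to 13.9) of 293 HAMS and 8.36% (5.43 to 12.2) of 287 HAMSAB cells. Thinned to 500, the shares were 1.28% and 2.39%, and those of 4 or more were 11.4% and 9.90%. Just outside the threshold, cells with a sum of 1 held 2465 CPM (2231 to 2716, Poisson) of other interferon-induced genes in HAMS and 1604 (1347 to 1897) in HAMSAB. Just inside it, cells with a sum of 2 held 3350 (3013 to 3715) and 2296 (1941 to 2697).

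**Figure D1:**
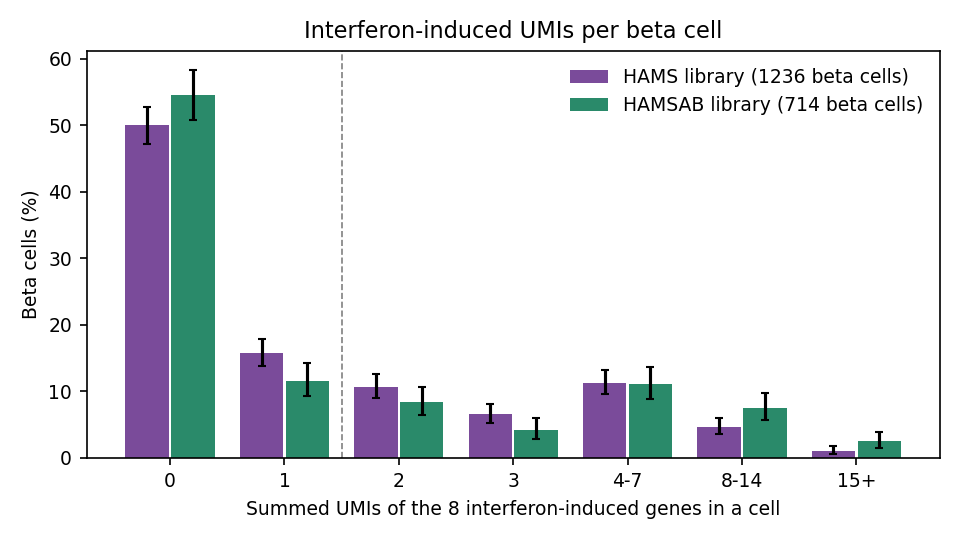
Share of beta cells (%, y axis) by the summed UMIs of the 8 interferon-induced genes in the cell (x axis), for the HAMS library (1236 beta cells) and the HAMSAB library (714). Bars carry exact 95% intervals and the dashed line marks the threshold of 2 UMIs. The bar at 0 is the highest in both libraries (50% and 54.6%), and the bars at 8 to 14 and at least 15 UMIs are higher in HAMSAB, whose cells are deeper (median 841 against 667.5 UMIs); thinned to 1000 UMIs, 8 or more are found in 9.90% and 8.36%.

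Most of the 8 genes are known or predicted interferon-induced GTPases, and some of these attack the membranes around intracellular pathogens. Iigp1, an immunity-related GTPase, was the main contributor and was detected in 323 of 423 cells (76.4%) in HAMS and in 172 of 241 (71.4%) in HAMSAB. It made up 44.1% and 33.7% of the UMIs of the sum, at 2327 (2180 to 2481) and 1782 (1640 to 1932) CPM. The remaining beta cells, which by construction have at most 1 UMI of the sum, held 129 and 45.7 CPM of Iigp1. Without Iigp1 in the sum, 140 of the 423 and 45 of the 241 cells would fall below the threshold.

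Gm4841 and F830016B08Rik, are predicted interferon-inducible GTPases related to Iigp1. In HAMSAB they had 366 and 199 UMIs, with Gbp4 (248) between them, all below the 581 of Iigp1. Gm4841 was detected in 39.0% (34.3 to 43.8) of the cells in HAMS and 54.4% (47.8 to 60.8) in HAMSAB. F830016B08Rik was detected in 14.9% (11.6 to 18.7) and 36.1% (30.03 to 42.5). These HAMSAB cells were deeper (median 1119 against 835 UMIs), which raises detection. Over all beta cells thinned to 500 UMIs, Gm4841 was detected in a median of 12.4% (range of 20 draws 11.1 to 13.6) in HAMS and 13.9% (11.8 to 15.2) in HAMSAB, so the ranges overlap. F830016B08Rik was then detected in 3.83% (3.02 to 4.30) and 7.85% (6.49 to 9.04). Both genes share sequence with near-identical relatives, so the split of reads between them is uncertain.

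The guanylate-binding proteins Gbp4 and Gbp6, which coat pathogen membranes, were detected in 38.1% and 15.1% of the cells in HAMS and in 43.6% and 23.2% in HAMSAB. Their family members Gbp8 and Gbp10 are close copies, and counts among them are uncertain too. Irgm1 and Igtp, which regulate the other immunity-related GTPases, were detected in 25.8% and 21.04% of HAMS cells and in 22.4% and 27.0% of HAMSAB cells. Rsad2 encodes viperin, an antiviral enzyme of the type I response, and was detected in 21.3% and 18.3%.

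The genes were found together in single cells as well as apart. In HAMS 20.3% (16.6 to 24.5) of the cells had UMIs of exactly 1 of the 8 genes and 19.4% (15.7 to 23.5) had UMIs of 4 or more. In HAMSAB the shares were 14.5% (10.3 to 19.6) and 29.0% (23.4 to 35.2). All 8 genes were seen in 1 cell of the HAMS and 2 cells of the HAMSAB library. The median depth of the HAMSAB cells was higher (1119 against 835 UMIs), and its part in these counts was not tested.

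Interferon-induced GTPases outside the sum were higher in the same cells. Of the 18 listed, 16 are in the table and 11 had at least 20 UMIs in beta cells of the HAMS library; all 11 were above the remaining beta cells, 9 of them at least 2-fold, with a median log2 ratio of 1.60. In HAMSAB all 9 that had 20 UMIs were at least 2-fold higher, with a median of 2.74. The median over all genes counted was 0.09 in HAMS and 0.01 in HAMSAB. Of them 58.95% and 51.04% were above 0, and 2-fold higher levels were found for 3.28% and 4.38%. The larger ratios in HAMSAB went with lower levels in its remaining beta cells. There the median log2 ratio of HAMSAB over HAMS was -1.28 over 7 of these GTPases, against 0.06 for all genes. In the cells with interferon-induced RNA it was 0.12 over 11. The remaining beta cells of HAMSAB were also deeper (median 728 against 576 UMIs). A limit of 1 UMI is stricter in deeper cells, and its part was not tested. Signs of RNA quality differed between the same groups of cells. Malat1, a nuclear RNA, made up 2.09% of UMIs against 1.55% in the remaining beta cells of HAMS and 2.95% against 2.38% in HAMSAB. Actb made up 5.57% against 6.56% and 3.49% against 4.47%, and the part of either in the ratios was not tested. Since the sum was chosen on the same response, these counts describe the cells and are not independent support for it.

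Gbp7, another guanylate-binding protein, had the most UMIs in this list, at 1014 CPM against 334 in the remaining beta cells of HAMS and 647 against 137 in HAMSAB. Its log2 ratios were 1.60 (exact conditional interval 1.36 to 1.86) and 2.24 (1.81 to 2.69). The predicted GTPase 9930111J21Rik2 had the highest ratio of the list in both libraries, at 294 against 41.9 CPM in HAMS and 215 against 14.4 in HAMSAB. Gbp2 was at 237 against 87.2 and at 294 against 40.9, and Gbp5, which also takes part in inflammasome assembly, at 82.2 against 18.4 and at 95.1 against 9.61 (4 UMIs). The T cell-specific GTPases Tgtp1 and Tgtp2, close copies of each other, had log2 ratios of 1.77 and 2.09 in HAMS and 2.29 and 2.74 in HAMSAB. In every gene of this paragraph the interval lay above 0 in both libraries.

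Antiviral effectors and type I interferon targets were more mixed. Among 16 genes with 20 UMIs in HAMS, 15 were above the remaining beta cells (58.95% of all genes were) and 12 at least 2-fold (median 1.19). In HAMSAB 9 of 10 were above (51.04% of all genes) and 6 at least 2-fold (median 1.31). Ifit1, which binds viral RNA, was at 179 against 53.7 CPM in HAMS and 144 against 31.2 in HAMSAB, log2 ratios of 1.74 (1.12 to 2.39) and 2.21 (1.30 to 3.22). Dtx3l, a ubiquitin ligase that works with Parp9, was at 583 against 283 and at 438 against 111. Parp14 had log2 ratios of 1.81 and 1.60, and Rtp4 1.51 and 1.57. Lgals3bp, a secreted glycoprotein, was at 0.05 (-0.37 to 0.47) in HAMS and 0.61 (0.16 to 1.06) in HAMSAB. The single gene below 0 in both libraries was Tor3a, at -0.54 (-1.61 to 0.46) and -0.10 (-1.36 to 1.12). Isg15, a ubiquitin-like modifier that is a common mark of the type I response, was nearly absent, with 1 and 3 UMIs in the cells with interferon-induced RNA, and Ifit3 had 4 and 0 UMIs.

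The signalling genes differed less than their targets. Irf1, an interferon-induced transcription factor, was at 229 against 168 CPM in HAMS and 221 against 96.1 in HAMSAB, log2 ratios of 0.45 (0.03 to 0.87) and 1.20 (0.62 to 1.80). Over 15 genes of receptors, JAK kinases, STAT and IRF factors and their inhibitors with 20 UMIs in HAMS the median was 0.35, with 2 at least 2-fold higher. Over 12 in HAMSAB it was 0.24, with 3 at least 2-fold higher. Above 0 were 13 of the 15 and 8 of the 12, against 58.95% and 51.04% of all genes. At least 2-fold higher were 3.28% and 4.38% of all genes. The interferon gamma receptor chains Ifngr1 and Ifngr2 had log2 ratios of 0.18 (-0.86 to 1.19) and 0.30 (-0.55 to 1.13) in HAMS and 0.86 (-0.04 to 1.79) and 0.27 (-0.78 to 1.31) in HAMSAB, with intervals that include 0. The type I receptor chain Ifnar2 was at 1.79 (0.32 to 3.46) in HAMS, on 14 against 6 UMIs. In HAMSAB Ifnar2 was at -0.65 (-2.35 to 0.88), on 6 against 12 UMIs.

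Of 10 interferon genes looked up, Ifng, Ifnk and no other had a UMI in either library. Ifnk, a type I interferon known from keratinocytes, had 75 UMIs in 68 cells of HAMS and 119 in 107 cells of HAMSAB, of which 4 and 1 were in the beta cells with interferon-induced RNA. Ifng, which encodes interferon gamma, had 9 UMIs in all kept cells of HAMS and 30 of HAMSAB, of which 6 and 17 were in T cells and 0 and 2 in the beta cells with interferon-induced RNA. Ifih1, the cytosolic RNA sensor MDA5 and a diabetes risk gene, had 11 and 11 UMIs in these cells, with log2 ratios of 1.45 (-0.12 to 3.17) and 1.49 (-0.15 to 3.36).

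Genes of MHC class I presentation were higher by smaller ratios. B2m, the invariant light chain of class I, was at 1134 against 711 CPM in HAMS and at 1788 against 993 in HAMSAB, log2 ratios of 0.67 (0.48 to 0.87) and 0.85 (0.66 to 1.03). The heavy chain H2-K1 had ratios of 0.53 (0.29 to 0.76) and 0.81 (0.50 to 1.11), and H2-D1 0.37 (0.14 to 0.60) and 0.55 (0.30 to 0.80). The peptide transporter subunit Tap1 had ratios of 1.19 (0.19 to 2.23) and 1.27 (0.02 to 2.62), and Tapbp, the loading chaperone, 0.70 in both libraries. Nlrc5, the transcriptional activator of class I genes, was at 0.42 (-0.07 to 0.90) in HAMS and 1.66 (0.94 to 2.43) in HAMSAB. Across the list 21 of 22 genes in HAMS and 20 of 20 in HAMSAB were above 0, against 58.95% and 51.04% of all genes, with medians of 0.41 and 0.83. At least 2-fold higher were 2 and 7 of them, against 3.28% and 4.38% of all genes.

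MHC class II genes, which mark professional antigen-presenting cells, had a median of -0.09 over 4 genes in HAMS and 0.48 over 5 in HAMSAB. H2-Ab1, a class II beta chain, was at -0.24 (-0.69 to 0.19) in HAMS and 1.22 (0.64 to 1.81) in HAMSAB. Cd74, the invariant chain, was at -0.12 (-0.35 to 0.09) and 0.48 (0.21 to 0.75). The immune markers without Igkc moved the same way, lower than in the remaining beta cells in HAMS (209 against 272 CPM) and higher in HAMSAB (350 against 293). With Igkc, all 24 markers summed to 413.5 against 335.3 CPM in HAMS, which turns its direction, and to 883 against 714 in HAMSAB. Their part in the class II values was not tested.

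Signals to T cells were present too. Cxcl10, a chemokine that recruits activated T cells, was at 346 against 88.9 CPM in HAMS and 359 against 45.7 in HAMSAB, log2 ratios of 1.96 (1.496 to 2.45) and 2.97 (2.27 to 3.76). It was detected in 60 of 423 (14.2%) and 47 of 241 (19.5%) cells. Cxcl9, which binds the same receptor, had 23 UMIs in 9 cells and 10 UMIs in 5 cells. Cd274, which encodes the inhibitory checkpoint ligand PD-L1, was at 179 against 72.1 CPM in HAMS and 156 against 14.4 (6 UMIs) in HAMSAB, ratios of 1.31 (0.75 to 1.90) and 3.44 (2.22 to 4.95). For both Cxcl10 and Cd274 the levels in the cells with interferon-induced RNA were close between the libraries, and the remaining beta cells were lower in HAMSAB.

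**Figure D2:**
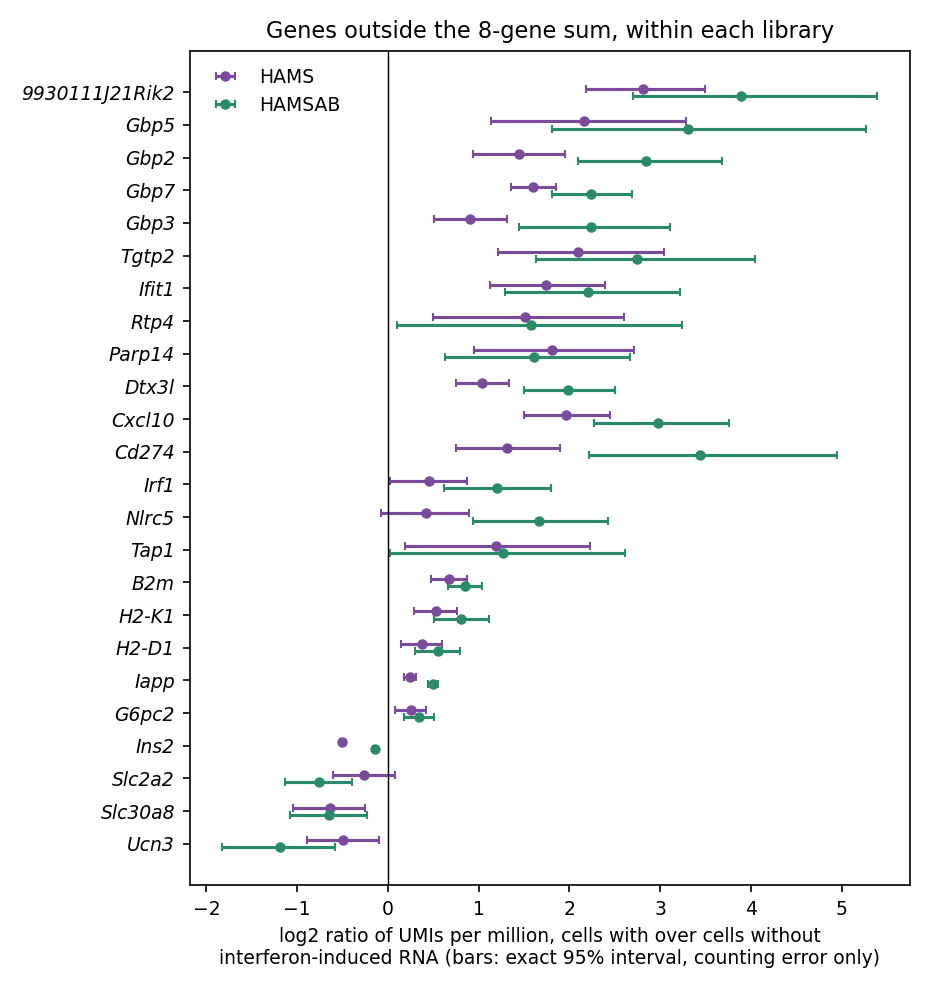
Log2 ratio of CPM in beta cells with over beta cells without interferon-induced RNA (x axis), for 24 genes outside the 8-gene sum (y axis), in the HAMS and HAMSAB libraries. Bars are exact 95% intervals for counting error. GTPases, Cxcl10 and Cd274 lie to the right of 0, class I genes nearer to it, and Slc30a8 and Ucn3 to the left in both libraries.

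The level of the other interferon-induced genes, summed over the GTPase and antiviral lists (49 genes in the table), followed the 8-gene sum step by step. In HAMS it was 1634 CPM in beta cells with a sum of 0, then 2465, 3434, 4186 and 6331 in those with a sum of 1, 2 to 3, 4 to 7 and 8 or more. In HAMSAB the same steps were 889, 1604, 2244, 3546 and 4832. As sequenced, HAMSAB was lower than HAMS at each step, but its cells were deeper, with a median of 707 against 561.5 UMIs at the lowest step and 1604 against 1150 at the highest. Thinned to 1000 UMIs in 1 draw, the step of 2 to 3 turned. It was at 2944 (2505 to 3439) in HAMS and 3079 (2546 to 3690) in HAMSAB. The other steps were lower in HAMSAB, with intervals that overlap at 4 to 7 and at 8 or more. Those steps were at 3688 (3164 to 4273) against 3473 (2998 to 4002) and 8207 (7197 to 9318) against 6833 (5828 to 7963). Beta cells with a sum of 0 thus also held UMIs of these other genes. B2m went from 696 to 1264 in HAMS and from 892 to 2110 in HAMSAB between the lowest and the highest step. Ucn3, a peptide of mature beta cells, went from 297 (248 to 353) to 89.5 (38.6 to 176) and from 224 (176 to 281) to 78.4 (37.6 to 144), the highest step resting on 8 and 10 UMIs. Immune markers without Igkc were at 281 (233 to 336) and 213 (128 to 332) at these steps in HAMS, and at 290 (235 to 354) and 455 (346 to 588) in HAMSAB.

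**Figure D3:**
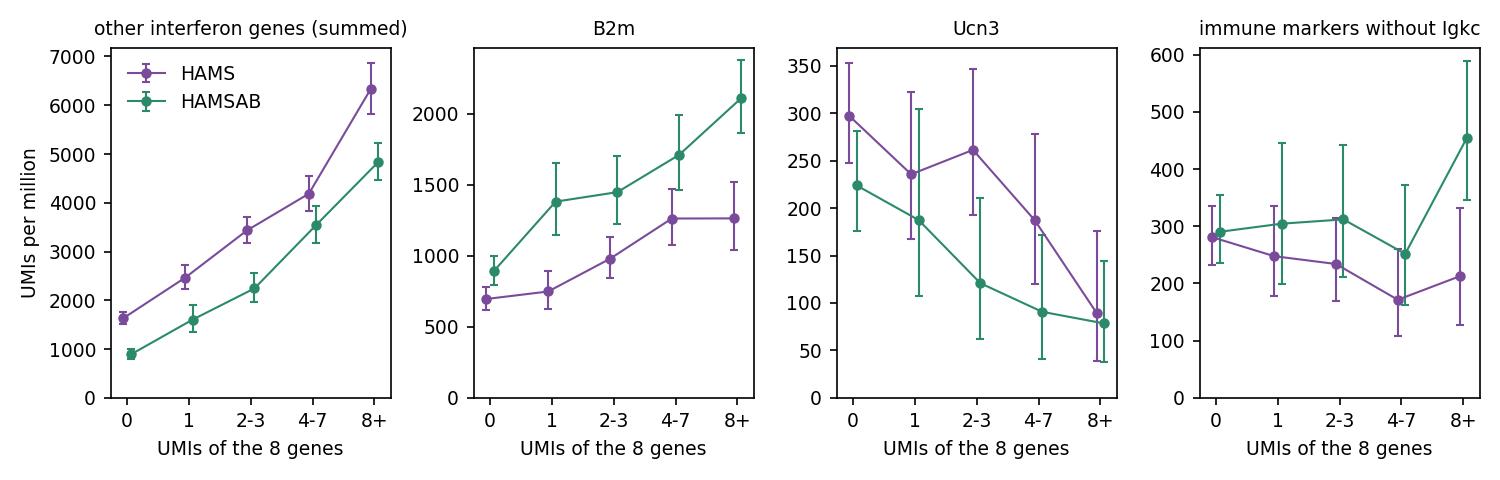
Level (CPM, y axis) of the other interferon-induced genes summed, B2m, Ucn3 and the immune markers without Igkc, by the UMIs of the 8 genes in the beta cell (x axis), in each library. Bars are exact 95% Poisson intervals. The first panel climbs at each step in both libraries (1634 to 6331 and 889 to 4832), and the Ucn3 panel ends below where it starts.

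Beta cell identity genes as a group were near the median of all genes. Of 23 with 20 UMIs in each library, 10 were above and 13 below the remaining beta cells in HAMS (median -0.06), and 8 above and 15 below in HAMSAB (median -0.14), where 58.95% and 51.04% of all genes were above. At least 2-fold lower were 0 genes in HAMS and 2 in HAMSAB, against 1.59% and 3.19% of all genes counted. Single members stood apart. Ucn3 had log2 ratios of -0.49 (-0.89 to -0.10) and -1.19 (-1.83 to -0.58). Slc30a8, the zinc transporter of insulin granules and a diabetes autoantigen, had -0.64 (-1.04 to -0.25) and -0.65 (-1.08 to -0.23). Slc2a2, the glucose transporter GLUT2, had -0.26 (-0.61 to 0.08) and -0.76 (-1.13 to -0.40).

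Insulin RNA itself, whose share the selection bounds from below, was at 70580 against 100200 CPM for Ins2 in HAMS and 91290 against 100900 in HAMSAB. Within the remaining beta cells Ins2 was lower at a sum of 0 than at 1, at 91220 and 123500 CPM in HAMS and 98040 and 112000 in HAMSAB. At a sum of 8 or more it was at 47170 in HAMS and 95930 in HAMSAB. The median insulin share per cell was 6.61% (6.22 to 7.16) against 7.70% (7.44 to 8.06) in HAMS and 8.42% (7.52 to 9.41) against 8.88% (8.43 to 9.25) in HAMSAB. These intervals rest on the spread between cells of 1 library, which are not replicates. Iapp, the amylin precursor co-secreted with insulin, went the other way, at 9028 against 7632 and 17980 against 12750 CPM (log2 ratios 0.24 and 0.50). G6pc2 was also above, at 0.25 (0.08 to 0.43) and 0.35 (0.18 to 0.51). The transcription factor Mafa was at 0.11 (-0.04 to 0.26) in HAMS and -0.31 (-0.48 to -0.13) in HAMSAB.

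Secretory granule genes were slightly above, with medians of 0.30 over 18 genes in HAMS and 0.09 in HAMSAB. The granin Chgb had log2 ratios of 0.48 (0.34 to 0.62) and 0.66 (0.53 to 0.79), and the processing enzyme Cpe 0.58 (0.38 to 0.77) and 0.29 (0.11 to 0.48). Pcsk1n, an inhibitor of prohormone convertase, was below in both libraries, at -0.38 and -0.43. Chga differed in sign, at 0.13 (0.08 to 0.18) in HAMS and -0.33 (-0.39 to -0.26) in HAMSAB.

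Stress genes showed no common direction. The list of the unfolded protein and integrated stress response had medians of 0.15 and 0.10 over 20 genes, with Hspa5, the main chaperone of the endoplasmic reticulum, at 0.42 (0.33 to 0.52) in HAMS and 0.00 (-0.10 to 0.11) in HAMSAB. Immediate early and dissociation stress genes had a median of -0.07 in both libraries. The heat shock gene Dnajb1 was below in both, at -0.44 (-0.68 to -0.21) and -1.32 (-1.78 to -0.88), while Hspa1b was at 0.65 (0.28 to 1.03) and -1.19 (-1.81 to -0.61). NF-kB targets had medians of 0.26 over 9 genes and 0.02 over 8. The cell death list had medians of 0.21 and 0.03 over 7 genes. Above 0 were 5 in HAMS and 4 in HAMSAB (58.95% and 51.04% of all genes), below it 2 and 3, the lowest at -0.46 in each. Within this list Mcl1, an anti-apoptotic protein, was above in both, at 0.67 (0.12 to 1.23) and 0.90 (0.36 to 1.45). Casp4, an inflammatory caspase, had 13 against 4 UMIs and 16 against 6.

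Over all 4520 genes counted with the 8 genes left out, 30 (0.664%) had a 2-fold or larger excess in both, and 20 of these are on the interferon, presentation, chemokine or checkpoint lists. The other 10 include Nmi, a partner of STAT and of interferon-induced proteins, with log2 ratios of 1.36 and 1.12. They also include Trim56, an antiviral ubiquitin ligase, with 1.10 and 1.35. Each rests on 26 UMIs or fewer per group. The cells were chosen by genes of the same response, so the overlap with those lists describes them and is not independent support. The share of all genes counted that is on those lists is not given here. At least 2-fold lower in both were 9 genes (0.199%), none on those lists. They include the mitochondrial enzymes Idh2, at -1.28 (-2.12 to -0.51) and -1.16 (-2.19 to -0.21), and Sdhb, at -1.60 (-3.17 to -0.29) and -1.43 (-2.89 to -0.17). Idh2 rested on 18 against 65 UMIs in HAMS and 13 against 37 in HAMSAB. Sdhb rested on 6 against 27 and 7 against 24. A shared theme of the 9 genes was not tested. The metallothioneins Mt1 and Mt2 were below as well, at -0.51 and -0.55 in HAMS and -1.32 and -1.26 in HAMSAB. So were the sterol gene Insig1 (-0.35 and -1.43) and Ppp1r1a, a phosphatase inhibitor abundant in beta cells (-0.62 and -0.69).

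The same 8-gene sum was applied to other cells of the islets, as far as hormone shares and markers name them. A sum of 2 or more was found in 15.04% (11.7 to 18.9) of 399 alpha cells and 19.9% (16.0 to 24.4) of 376 delta cells in HAMS, and in 14.7% (10.6 to 19.5) of 266 alpha cells and 18.6% (14.5 to 23.4) of 311 delta cells in HAMSAB. In immune cells, named by at least 3 UMIs of the 24 markers, it was found in 6.28% (4.76 to 8.09) of 876 and 6.61% (5.46 to 7.93) of 1633. Median depths were 667.5 and 841 UMIs for beta cells, 598 and 656.5 for alpha, 667 and 606 for delta and 857.5 and 812 for immune cells. Thinned to 500 UMIs, the share was 9.34% and 11.1% in alpha, 14.6% and 14.5% in delta, and 3.62% and 3.51% in immune cells. Beta cells, at 28.2% and 23.2%, had the highest share in both libraries, and 1 library per diet gives no test of the difference. The sum is made of the genes that chose the beta cells described here, so this order holds for these 8 genes. Genes outside the sum differed in their order. Gbp2 was at 147 and 152 CPM in all beta cells, above alpha (79.7 and 136) and delta cells (39.0 and 72.3). Gbp7 was at 607 and 361 in all beta cells and 621 and 362 in delta cells. Irf1 was at 192 and 151 in all beta cells and 246 and 235 in alpha cells.

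**Figure D4:**
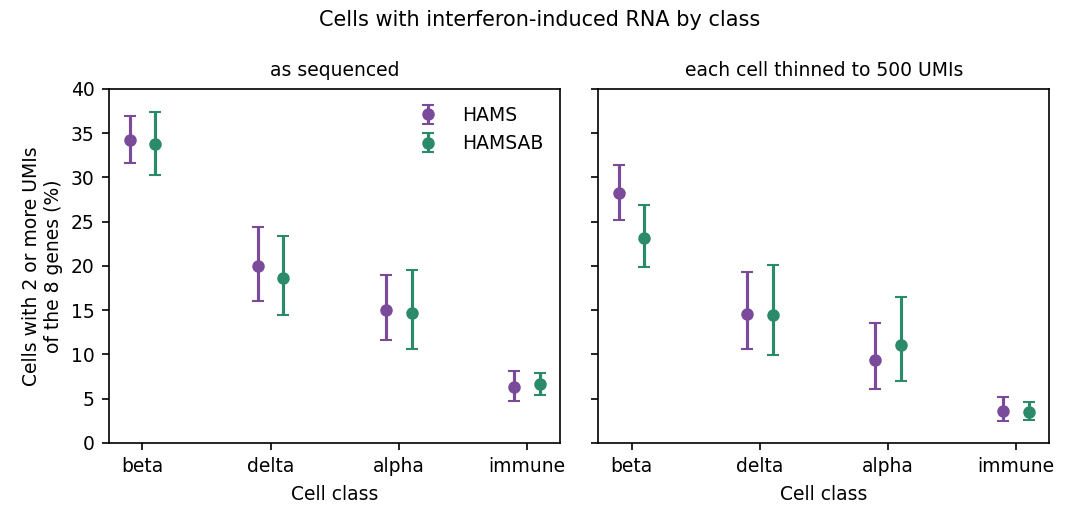
Share of cells with 2 or more UMIs of the 8 genes (%, y axis) in beta, delta, alpha and immune cells (x axis) of each library, as sequenced (left) and with each cell thinned to 500 UMIs (right). Bars are exact 95% intervals. Beta cells are highest in both panels (34.2% and 33.8%, thinned 28.2% and 23.2%) and immune cells lowest. The sum is made of the genes that chose the beta cells described here.

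The classes differed in which of the 8 genes they carried. F830016B08Rik had 0 UMIs in 876 immune cells of HAMS and in 1633 of HAMSAB, which limits the share of immune cells with a UMI of it to 0.342% and 0.184%, not the share of cells that hold its RNA. It had 1 UMI in alpha cells of each library, against 111 and 207 UMIs in all beta cells. Gm4841 was detected in 0.114% and 0.306% of immune cells, in 2.51% and 0.752% of alpha cells and in 15.5% and 20.3% of beta cells. Iigp1 was less uneven, at 1013 and 808 CPM in all beta cells, 347 and 320 in alpha cells, 525 and 420 in delta cells and 84.1 and 81.6 in immune cells. Irgm1 was at 211 and 207 CPM in alpha cells and 216 and 158 in delta cells, against 173 and 125 in all beta cells.

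Within beta cells the share differed by insulin class. In HAMS it was 41.1% (34.8 to 47.7) of cells with 3 to 5% insulin UMIs, 34.8% at 5 to 10%, 28.2% at 10 to 20% and 27.1% (18.5 to 37.1) above 20%. In HAMSAB it was 46.4% (35.5 to 57.6), 31.2%, 34.6% and 30.4% (21.7 to 40.3). The classes differed in depth, with medians of 765, 656.5, 551 and 996.5 UMIs in HAMS and 935.5, 736, 812 and 1188 in HAMSAB. Thinned to 500 UMIs, the shares in the same order were 30.9%, 29.2%, 28.8% and 16.0% (8.83 to 25.9) in HAMS. In HAMSAB they were 32.9%, 23.3%, 21.2% and 18.3% (11.0 to 27.7). Because insulin UMIs take up part of the depth of a cell, the share of insulin and the chance to see other RNA are tied.

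Between the libraries, the 8 genes did not move together in the cells with interferon-induced RNA, which their sum had selected in each library. F830016B08Rik was at 262 CPM in HAMS and 610 in HAMSAB, a log2 ratio of 1.22 (0.87 to 1.58). Gm4841 was at 690 and 1122, a ratio of 0.70 (0.47 to 0.93). Iigp1 was lower in HAMSAB, at 2327 and 1782 (-0.39, -0.54 to -0.23). Irgm1 (-0.64, -1.04 to -0.24) and Rsad2 (-0.59, -1.03 to -0.17) were lower too. Gbp4, Gbp6 and Igtp had intervals that include 0, at -0.01, 0.35 and -0.11. Of the 8 genes, F830016B08Rik reached a 2-fold higher level in HAMSAB and 0 a 2-fold lower level, against 2.26% and 3.35% of all 2300 genes counted.

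Since the cells were picked by the sum of these same genes, the ratios were also taken over all beta cells, which no interferon gene chose. F830016B08Rik was then at 111 and 279 CPM (1.33, 0.99 to 1.67), Gm4841 at 305 and 512 (0.75, 0.53 to 0.97) and Iigp1 at 1013 and 808 (-0.33, -0.47 to -0.18). With each beta cell weighted equally, the ratios were 1.03, 0.44 and -0.35. Thinned to 500 UMIs, the Gm4841 ratio had a median of 0.40 over 20 draws and ran from 0.02 to 0.63, so in single draws the difference was near 0. F830016B08Rik then ran from 0.58 to 1.53 (median 1.07) and Iigp1 from -0.66 to -0.37 (median -0.48). The 8 genes together were at 2318 and 2437 CPM, a ratio of 0.07 (-0.02 to 0.16), or -0.07 with cells weighted equally. The other interferon-induced genes together were lower in HAMSAB, at 2852 and 2185 CPM (-0.38, -0.47 to -0.30), or -0.49 with cells weighted equally.

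Among those other genes, none of 27 with 20 UMIs was 2-fold apart between the libraries in the cells with interferon-induced RNA. Of all 2300 genes counted, 2.26% were 2-fold higher and 3.35% 2-fold lower in HAMSAB. At shares that low few of 27 genes would be 2-fold apart, so this does not set them apart from other genes. The median of the 27 was -0.17, against -0.02 for all genes. Gbp7 was at 1014 and 647 CPM (-0.65, -0.89 to -0.40) and Gbp3 at 299 and 193 (-0.63, -1.09 to -0.18). Cxcl10, at 0.05 (-0.32 to 0.42), had an interval around 0. B2m was higher in HAMSAB, at 1134 and 1788 (0.66), and was so over all beta cells too (0.61, 0.47 to 0.74). H2-K1 was at -0.14 and H2-D1 at 0.21, with ratios of -0.25 (-0.44 to -0.06) and 0.14 (-0.03 to 0.31) over all beta cells. B2m was higher in HAMSAB in alpha cells (1633 and 3202 CPM) and delta cells (1448 and 2047) too. Gbp7 was lower in HAMSAB in alpha cells (503 and 249) and delta cells (621 and 362) too.

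**Figure D5:**
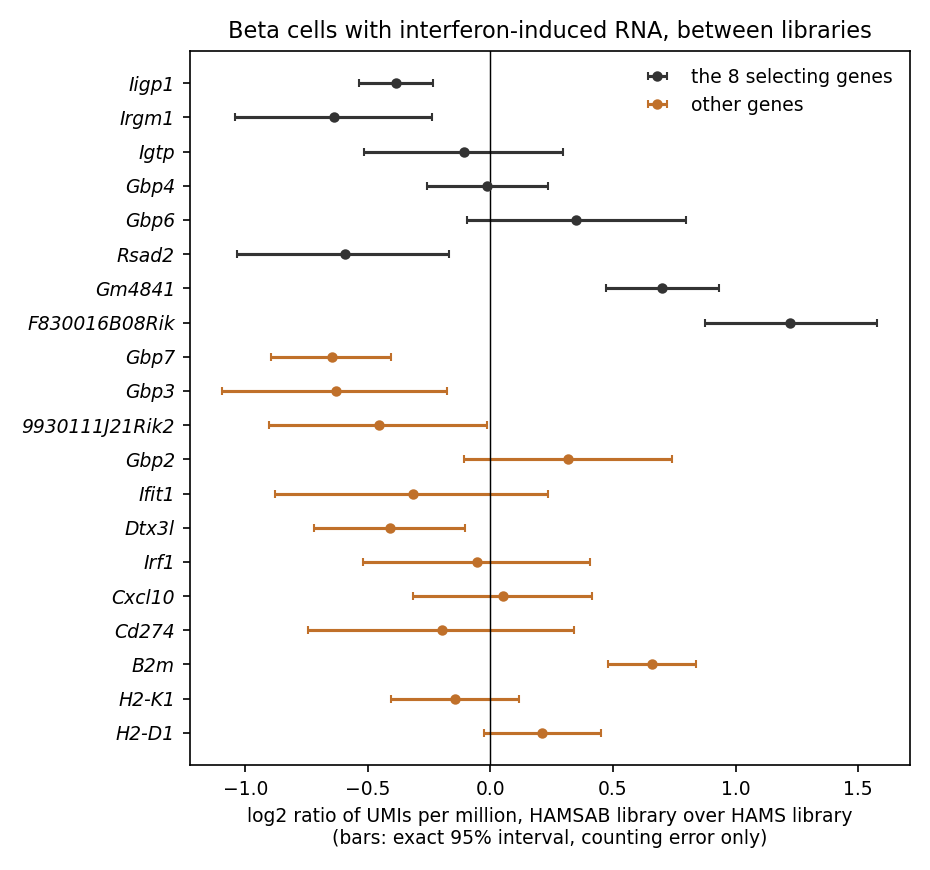
Log2 ratio of CPM, HAMSAB over HAMS library (x axis), within beta cells with interferon-induced RNA, for the 8 selecting genes and 12 other interferon-induced genes (y axis). Bars are exact 95% intervals for counting error. F830016B08Rik and Gm4841 lie to the right of 0 with B2m, and Iigp1, Irgm1, Rsad2, Gbp7 and Gbp3 to the left.

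Over the whole transcriptome of these cells, 2-fold or larger ratios were found among 2300 genes, for 52 with the higher and 77 with the lower level in HAMSAB. With the scale taken from UMIs outside insulin and the 8 genes, the counts were 66 and 62. Iapp was at 9028 and 17980 CPM (0.99, 0.93 to 1.05), spread over 414 of 423 and 239 of 241 cells. Dapl1 was at 44.8 and 411 (3.196, 2.48 to 3.99), and Gc, the vitamin D binding protein, at 62.3 and 337 (2.44, 1.80 to 3.13). The remaining beta cells differed in the same direction, with ratios of 0.74 for Iapp, 2.28 for Dapl1 and 2.04 for Gc. Some of the highest ratios rested on few cells: all 57 Slpi UMIs of HAMSAB came from 2 cells, and single cells held 46.5% of the 684 Clu UMIs and 29.8% of the 151 Spp1 UMIs. Lower in HAMSAB were the sterol genes Hmgcs1 (-1.76) and Insig1 (-1.35), the heat shock genes Hspa1a (-2.07), Dnajb1 (-1.74) and Hspa1b (-1.63), the nuclear lamin gene Lmna (-1.48) and the lipase gene Lpl (-2.51). In the remaining beta cells Hmgcs1, Insig1 and Lpl were at -0.18, -0.27 and -0.39, and Lmna at -0.60. Hspa1a, Dnajb1 and Hspa1b were there at -0.46, -0.86 and 0.21. Gcg (-1.87) and Ppy (-3.37), hormones of other islet cells that the selection caps, were also lower in the cells with interferon-induced RNA. Both had the same direction in the remaining beta cells (-2.20 and -2.07).

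The authors' deposited table of HAMSAB against HAMS in beta cells lists 115 genes, of which Iigp1 is the single member of the 8-gene sum and none is on the interferon GTPase or antiviral lists. In the authors' deposited table Iigp1 has an average log2 fold change of -0.26 with an adjusted p of 1. The authors' deposited table gives B2m 0.41 and H2-K1 -0.37, each with an adjusted p of 1, and Iapp 0.66 with an adjusted p of 1.36e-18.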

How the data were processed

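Islet cells of 1 HAMS and 1 HAMSAB library were analysed from the deposited matrices of UMI counts per gene and barcode, raw counts made with Cell Ranger 5.0.0 per the file headers. The submitters' processing notes name Seurat and mm10 (GRCm38). The authors' deposited tables of comparisons hold log2 fold changes and p-values as the authors give them. Barcodes needed 200 genes or more, with mitochondrial UMIs no higher than 20%, and no doublet caller was run. Cells were classed by hormone shares: alpha and delta cells had Gcg or Sst at 3% or more, with the other hormones under 2%. UMIs were summed per library and cell group and scaled to counts per 1000000 UMIs (CPM). With 1 library per diet no test was made: shares have Clopper-Pearson, levels Poisson and ratios conditional binomial 95% intervals (scipy 1.17.1). Intervals of median insulin shares were taken from the ranked cells by the binomial distribution. Genes needed 20 UMIs in a list and 50 in a count. Thinning to 500 or 1000 UMIs used 1 random draw per setting; 20 draws (shares and single genes) and cell-weighted ratios were added after seeing that draws differed for single genes, as were, after seeing the data, the scale without insulin and the 8 genes and leaving out shared barcodes. The named genes are the 8 of the sum, the 12 highest and lowest by the interval bound nearest 0 in both libraries, the 10 between libraries, and the most abundant, highest and lowest of each list; some others, among them Isg15, Ifit3, Rtp4, G6pc2, Slc2a2, Nmi and Trim56, were chosen after their values were seen. The members and lists were chosen with earlier results of these data known. Some genes are not reported here. Symbols were taken from the files, and gene positions from the GENCODE annotation. Scripts were tested on simulated counts.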

Additional observations from a re-analysis of the deposited data

Results flagged for a closer look

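Genes whose ratio of cells with over cells without interferon-induced RNA had opposite signs in the libraries, with both intervals away from 0, were the granin Chga, at 0.13 in HAMS and -0.33 in HAMSAB, and the heat shock gene Hspa1b, at 0.65 and -1.19. The difference between the libraries was not tested.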

How the results depend on the processing

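No paired analysis was possible because each diet has 1 library. Under the alternative settings 107 values stayed within their interval (counts: within 1.5 times), 48 did not and 1 changed sign. The interferon medians within each library stayed within theirs, which are wide. Those bounds are the medians of the single genes' lower and upper bounds and are no interval of the list median. With insulin at least 10% the HAMS median fell from 1.34 to 0.71, with such bounds at -0.40 and 1.93. Values are given HAMS first. Shares at 3 or more UMIs were 23.5% and 25.4% (beta), 8.52% and 9.40% (alpha), 11.2% and 10.3% (delta); at 4 or more, 16.9% and 21.1%, 5.26% and 6.77%, 7.45% and 5.14%. Thinned to 500 UMIs they were 28.2% and 23.2% (beta), 9.34% (alpha, HAMS) and 14.6% (delta, HAMS); to 1000, 44.7% and 40.8% (beta), 20.8% (alpha, HAMSAB), 30.7% and 26.9% (delta). With at least 500 genes they were 51.0% and 47.9%, 26.5% and 25.9%, 33.3% and 27.4%; without Iigp1, 22.9% and 27.5%, 9.02% and 10.2%, 10.4% and 11.6%. With insulin at least 10%, the HAMS beta share was 27.8% and median insulin 14.5% and 15.7%; median insulin in HAMS was 6.10% at 500 genes and 6.1% thinned to 1000. The interferon median between libraries turned to 0.030 thinned to 500 UMIs, a single draw. Genes 2-fold higher and lower in HAMSAB numbered 10 and 29 thinned to 500, 15 and 29 thinned to 1000, and 18 and 27 at 100 UMIs; those lower were 50 at a sum of 4, 51 at 500 genes, 24 at 10% insulin and 48 without the top 5% of cells by UMIs. Fewer cells or genes enter these counts. At a median of 704 and 705 UMIs per kept cell, a sum of 0 does not show absence of interferon-induced RNA.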
